A study of Mus musculus with 768 samples.

Results

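Among NK cells sorted from MTAP1A tumors, 54 of 726 kept cells carried transcripts of at least 2 of 8 cell cycle genes and are described here as cycling tumor NK cells. The 8 genes were Mki67, Top2a, Birc5, Ccna2, Cdk1, Rrm2, Tk1 and Nusap1, and a gene was called present in a cell at any RPKM (reads per kilobase of transcript, scaled to the mapped reads of the well) above 0. The cells were chosen by these 8 measured values, which are therefore given as a description only. A cell was kept when 1000 to 3500 genes were present in it, counting the 14761 genes present in at least 3 of all 768 wells. The cycling cells were set against the 511 kept cells with none of the 8 genes, 240 of them PD-1-/- and the others WT, called the reference, across all other genes. The name cycling follows from the rule. On counts of other cell cycle genes most members did not exceed the highest reference cell, as given below. The remaining 22.2% of kept cells, with exactly 1 of the 8 genes, were in neither group.

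MTAP1A is a clone of a Tap1-deficient MCA fibrosarcoma, a tumor that lacks the peptide transporter needed for MHC class I at the cell surface. Both hosts were male mice of 8 to 12 weeks on the C57BL/6 background, either wild type (WT) or PDCD-1(PD-1)-/-, written PD-1-/- from here on, whose deletion covers exons 3 and 4 of Pdcd1. Tumors of 3 mice were pooled for each genotype, and viable cells, gated for NK1.1 and against CD3 and GR1, were sorted singly into 1 plate per genotype for SMART-SEQ2, a full-length single cell RNA-sequencing method. Genotype, pool and plate therefore cannot be told apart, cells are not replicates, no p-value was computed, and intervals are exact 95% binomial (Clopper-Pearson) intervals that cover counting error only.

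Mki67 encodes a coat protein of mitotic chromosomes, Top2a the topoisomerase that disentangles DNA, Birc5 the survivin subunit of the chromosomal passenger complex, and Ccna2 and Cdk1 a cyclin and a kinase that drive the cell through S phase, G2 and mitosis. Rrm2 and Tk1 supply deoxynucleotides, and Nusap1 binds spindle microtubules. NK cells divide in response to IL-2 and IL-15, and transcripts of such genes appear in waves, those for DNA replication in late G1 and S phase and those for mitosis in G2 and M phase. The promoters of the S phase wave often hold sites for E2F factors, and those of the mitotic wave often hold CCAAT boxes and the cell cycle genes homology region, CHR, which the DREAM complex and B-Myb read.

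Those motifs are shown for 3 genes, Cdk1 as one of the 8 selecting genes, and Cks1b and Hells as members of the mitotic and chromosome lists with the highest ratios below. The letters searched on both strands were TTTGAA for CHR, CCAAT for the CCAAT box, and TTTGGCGC or TTTCCCGC for E2F, and matches are in capitals in each sequence, which runs from 250 bases before to 50 bases after the start site (RefSeq, GRCm38.p6). The Cdk1 sequence lies on the minus strand of chr10:69352863-69353162, that of Cks1b on the minus strand of chr3:89418242-89418541, and that of Hells on the plus strand of chr19:38930740-38931039.
Cdk1 promoter: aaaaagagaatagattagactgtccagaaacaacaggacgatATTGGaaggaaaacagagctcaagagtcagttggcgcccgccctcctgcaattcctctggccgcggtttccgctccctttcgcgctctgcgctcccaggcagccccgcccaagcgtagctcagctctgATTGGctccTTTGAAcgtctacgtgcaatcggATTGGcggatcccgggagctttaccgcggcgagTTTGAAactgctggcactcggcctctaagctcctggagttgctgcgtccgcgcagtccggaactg
Cks1b promoter: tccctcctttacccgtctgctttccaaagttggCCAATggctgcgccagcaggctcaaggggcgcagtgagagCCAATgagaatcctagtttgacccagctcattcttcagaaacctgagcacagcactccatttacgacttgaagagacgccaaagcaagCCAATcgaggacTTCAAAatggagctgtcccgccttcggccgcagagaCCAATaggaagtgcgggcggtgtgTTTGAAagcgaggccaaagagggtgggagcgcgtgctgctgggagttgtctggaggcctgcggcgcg
Hells promoter: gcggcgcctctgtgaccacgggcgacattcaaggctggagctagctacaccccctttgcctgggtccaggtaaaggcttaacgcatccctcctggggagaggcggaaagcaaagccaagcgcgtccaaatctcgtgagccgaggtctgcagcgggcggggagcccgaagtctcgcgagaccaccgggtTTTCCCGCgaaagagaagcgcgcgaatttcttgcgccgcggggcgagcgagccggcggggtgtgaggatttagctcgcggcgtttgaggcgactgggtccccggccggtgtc
Of 58 promoters found for the mitotic genes listed below, 69% held TTTGAA and 56.9% held it together with CCAAT, against 17.9% and 6.95% of all 32851 promoters. Of 63 promoters of the S phase genes, 19% held an E2F sequence, against 1.56% of all and 3.45% of the mitotic ones. Among the 7 of the 8 selecting genes that had a promoter in the table, 3 (Mki67, Top2a and Cdk1) held TTTGAA with CCAAT and 0 held either E2F sequence. These matches describe letters in a window and say nothing of binding in these cells.

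The 8 genes were rarely present together. Of 360 kept WT cells, 75.3% had none and 70 had 1, while 13 had 2, 4 had 3 and 2 had 5 of them. Of the kept PD-1-/- cells, 240 had none (65.6%) and 91 had 1, while 25 had 2, 4 had 3, 3 had 5, 1 had 6 and 2 had all 8. No kept cell had exactly 4 or 7, so the members fell into 46 cells with 2 or 3 genes and 8 cells with 5 or more, a split made after the values were seen.

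Reads behind these calls were recovered from the equal steps of the RPKM values. All recovered Tk1 counts in members were even, and most Nusap1 counts were multiples of 3. The step taken for 1 read of these genes may therefore be too small. Their counts would then be too high, and the numbers of low values given here too small. In the 38 members with exactly 2 genes, the 76 values had a median of 9.5 reads, 18 of them were single reads and 28 were at most 3 reads. In the 8 members with 5 or more genes 8 of the 47 values were at most 3 reads. Just outside the rule, the cells with 1 gene had a median of 8 reads for it, and 42 of those values were single reads. The members just inside and the cells just outside the threshold thus held similar numbers of reads per gene.

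**Figure D1:**
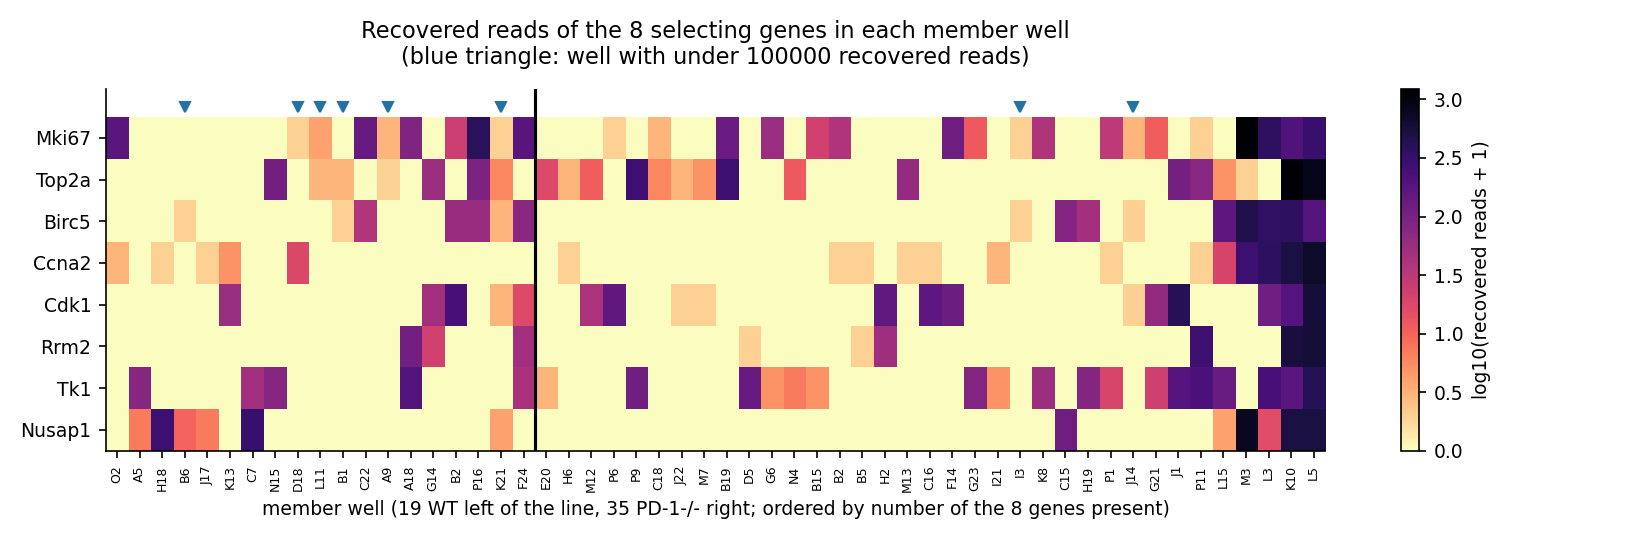
Recovered reads, as log10(reads + 1), of the 8 selecting genes (rows) in each of the 54 member wells (columns, named by plate position), WT left and PD-1-/- right of the line. PD-1-/- wells K10 and L5 hold reads in all 8 rows, and most other members hold reads in 2 rows.

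The PD-1-/- cells L5 and K10, carried all 8 genes, with 867 and 1117 reads of Top2a and 681 and 521 reads of Ccna2. M3 had 1218 reads of Mki67 and 761 of Nusap1 without a read of Cdk1, Rrm2 or Tk1, and L3 had 6 of the genes, without Top2a and Rrm2. P11 differed from these, with 394.6 RPKM of Rrm2 and 266.8 of Tk1 but single reads of Mki67 and Ccna2. L15 had 5 genes, led by 504.2 RPKM of Birc5 and 161.9 of Tk1. In WT, F24 had 5 genes at 25.68 to 340.1 RPKM, and K21 had 5 at 1 to 5 reads in a well of only 8084 recovered reads. The strongest cells were therefore mostly PD-1-/-, with 6 of the 8, and all 6 came from plate rows K to P, rows chosen after the cells were seen that held 37.7% of the kept PD-1-/- cells.

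Ccna2 stood apart from the other genes by its low reads. It was present in 5 WT members at 1 to 17 reads and in 13 PD-1-/- members, 7 of which had a single read, with 252.9 to 714.7 RPKM in 4 others. Tk1 was present in 5 of 19 WT and 18 of 35 PD-1-/- members, at a median of 78 and 81 recovered reads in those cells. Every recovered Tk1 count in members was even and none was a single read, so these medians may be too high. Mki67 was present in 10 of 19 and 18 of 35 members, at a median of 56 and 33.5 reads.

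Several properties of the wells moved with membership and bear on every comparison. Members had more genes present, with a median of 2977 in WT (1249 to 3453) against 2246 in the reference (1076 to 3476), and 2756 in PD-1-/- (1167 to 3441) against 2121.5 (1089 to 3495). Wells of fewer than 100000 recovered reads made up 6 of 19 WT and 2 of 35 PD-1-/- members, against 8 and 8 reference wells. At least 1 of Cd3d, Cd3e and Cd3g, which encode the CD3 chains of the T cell receptor complex, was present in 10 of 19 WT members (52.6%, 28.9 to 75.6) against 14.8% (10.8 to 19.6) of the reference, and in 14 of 35 PD-1-/- members (40%, 23.9 to 57.9) against 47 of 240 (19.6%, 14.8 to 25.2), although the sort gate was CD3 negative. Of the 8 members with 5 or more genes, 2 had a CD3 read. The part of these properties in the differences below was not tested. Values without these wells are given beside the main lists and for some other lists and entries, not for every one that differs.

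At least 1 of 8 NK cell markers was present in all 54 members, as in every reference cell, but 0 of the 8 were present in a larger share of members in both genotypes. All 8 had lower means in members in both genotypes, with median log2 ratios of mean RPKM + 1 of -0.77 in WT and -0.49 in PD-1-/-, and 0 of 8 reached 2-fold in both. Klrb1c, the NK1.1 antigen of the sort, was present in 15 of 19 WT and 35 of 35 PD-1-/- members, and Ncr1, the NKp46 receptor, in 14 and 29 of them, against 97.8% and 96.7% of reference cells for Klrb1c. The summed level of the 8 markers had a median of 8324 RPKM in WT members (2331 to 48270) and 18320 in the reference (1439 to 53670), and of 13760 (1823 to 52940) and 18970 (1391 to 79630) in PD-1-/-. The ranges overlapped widely. In wells of at least 100000 reads these medians were 12940 and 18000 RPKM in WT and 13870 and 19150 in PD-1-/-. The median log2 ratios of the 8 markers were then -0.50 and -0.43. In these wells 2 of the 8 were present in a larger share of members in both genotypes.

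Of markers of other cells, at least 1 of 10 T cell markers was present in 11 of 19 WT and 16 of 35 PD-1-/- members, against 19.2% and 22.5% of reference cells. Their summed level had a median of 112.6 RPKM (0 to 5387) in WT members and 0 (0 to 4184) in PD-1-/- members, against 0 (0 to 4775) and 0 (0 to 5410) in the references. Of the 10 markers 8 were present in a larger share of members in both genotypes. Beside the CD3 genes, Bcl11b, a transcription factor of T cells, was present in 7 of 54 members (12.96% against 3.91% of the reference), Cd6 in 6 (11.1% against 0.979%), Cd8b1 in 5 (9.26% against 1.57%), Cd5 and Cd8a in 3 each and Cd4 in 2, while Themis was at 0 in all members and all reference cells. Of 6 fibroblast or fibrosarcoma markers at least 1 was present in 7 of 19 WT members (36.8%), with a summed level of up to 1558 RPKM, but in 1 of the 13 WT members with at least 100000 reads. The WT reference shares were 7.01%, and 6.84% in wells of at least 100000 reads. In PD-1-/- at least 1 was present in 1 of 35 members against 3.75% of the reference. B cell, neutrophil and myeloid markers were present in 2, 1 and 6 WT members (10.5%, 5.26% and 31.6%), against 1.11%, 1.48% and 12.2% of the WT reference. They were present in 1, 1 and 4 PD-1-/- members (2.86%, 2.86% and 11.4%), against 1.67%, 1.25% and 7.5%. Of the 13 WT members with at least 100000 reads, 0, 0 and 3 held them. Cd79b and S100a8 were at 0 in all 54.

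Members made up 5.28% (3.21 to 8.12) of the WT cells kept, and for PD-1-/- their share was 9.56% (6.75 to 13.1), and these intervals overlapped. In wells of at least 100000 reads the shares were 3.81% (2.05 to 6.43) and 9.35% (6.52 to 12.9), and after each of these wells was thinned to 100000 reads they were 3.23% (1.62 to 5.70) and 6.80% (4.40 to 9.95). Where each gene needed at least 4 reads, 10 WT and 21 PD-1-/- cells remained, 2.78% (1.34 to 5.05) and 5.74% (3.59 to 8.64). For Tk1 and Nusap1 this rule was looser if their recovered counts were too high. PD-1-/- thus had the higher share under each of these rules, on 1 plate per genotype and with overlapping intervals, except in wells of at least 100000 reads, where the intervals were apart.

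The share varied with plate position in WT. Plate rows A and B held 6 of the 19 WT members, 15.8% (6.02 to 31.3) of the 38 kept wells there, against 4.04% (2.17 to 6.81) in rows C to P. In PD-1-/- the shares were 8.89% (2.48 to 21.2) and 9.66% (6.66 to 13.4). Among cells with a CD3 read, 15.4% (7.63 to 26.5) in WT and 16.9% (9.54 to 26.7) in PD-1-/- were members, against 3.05% (1.404 to 5.712) and 7.42% (4.65 to 11.1) of cells without one.

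**Figure D2:**
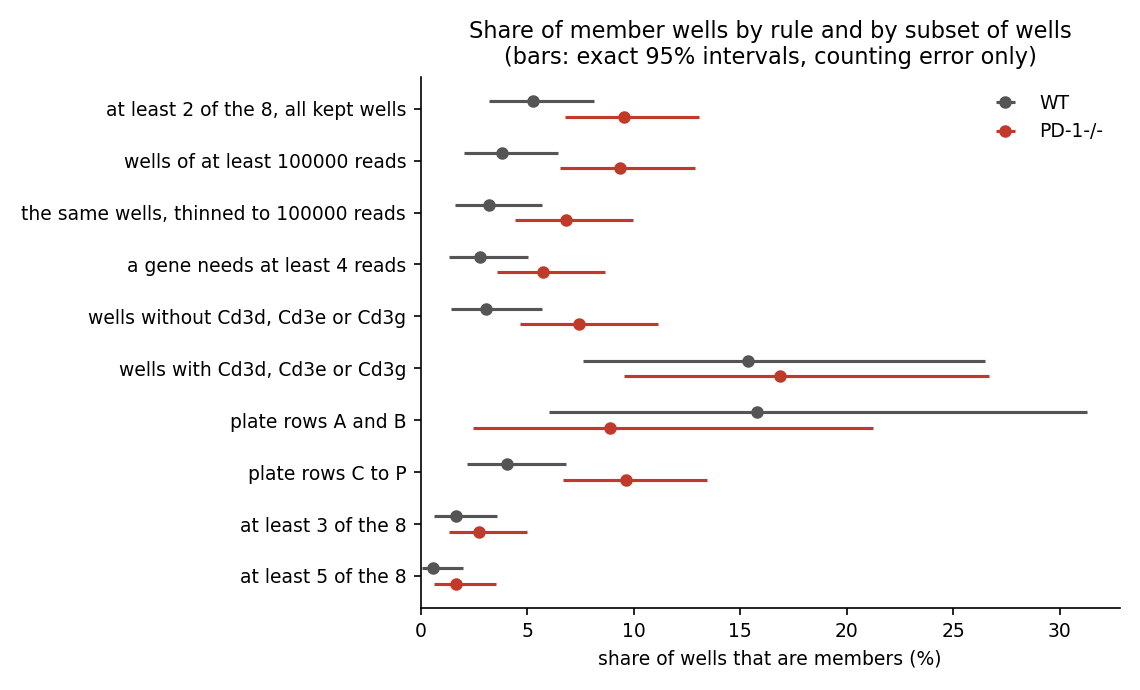
Share of wells that are members (x axis, percent) by rule or subset of wells (y axis) in WT (gray) and PD-1-/- (red), with bars for exact 95% intervals. PD-1-/- lies to the right of WT in every row except plate rows A and B, and most pairs of intervals overlap.

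To place the members in the cycle, the genes present in each cell were counted among 62 genes of S phase, which copy DNA or supply its nucleotides, and 65 mitotic genes of cyclins, kinases, kinetochore and spindle, none of them among the 8. Reference cells had a median of 9 S phase genes (2 to 31) and 2 mitotic genes (0 to 9) in WT, and 8 (1 to 28) and 2 (0 to 8) in PD-1-/-. Members had 13 (3 to 44) and 9 (1 to 25) in WT, and 10 (3 to 45) and 4 (1 to 54) in PD-1-/-. On 1 or both counts 11 of 19 WT members and 10 of 35 PD-1-/- members lay above the highest reference cell of their genotype. The other members did not, and for them the name cycling rests on the 8 selecting genes.

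Of the 54 members, 17 held more mitotic genes than any reference cell of their genotype, 8 held more S phase genes, and 4 held more of both. The mitotic excess was found in 7 of the 8 members with 5 or more genes and in 10 of the 46 with 2 or 3. L5 had 54 mitotic and 39 S phase genes and K10 had 47 and 24, while M3 had 39 mitotic and only 7 S phase genes and L3 had 42 and 16. P11 lay at the other end with 45 S phase and 6 mitotic genes, and high S phase counts were also found in A18 of WT with 44 and 8, J1 of PD-1-/- with 43 and 12, and G14 of WT with 41 and 14. One cell outside the rule, a PD-1-/- cell with 1 of the 8 genes, had 28 mitotic genes.

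Thinned to 100000 reads, members with 5 or more genes had a median of 34 mitotic (6 to 47) and 18 S phase genes (6 to 43) over 7 wells, and those with 2 or 3 had 4 (0 to 16) and 11 (3 to 42) over 39 wells. The thinned reference over both genotypes had 2 (0 to 8) and 8 (1 to 29) over 495 wells. The order of the groups was the same as without thinning.

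**Figure D3:**
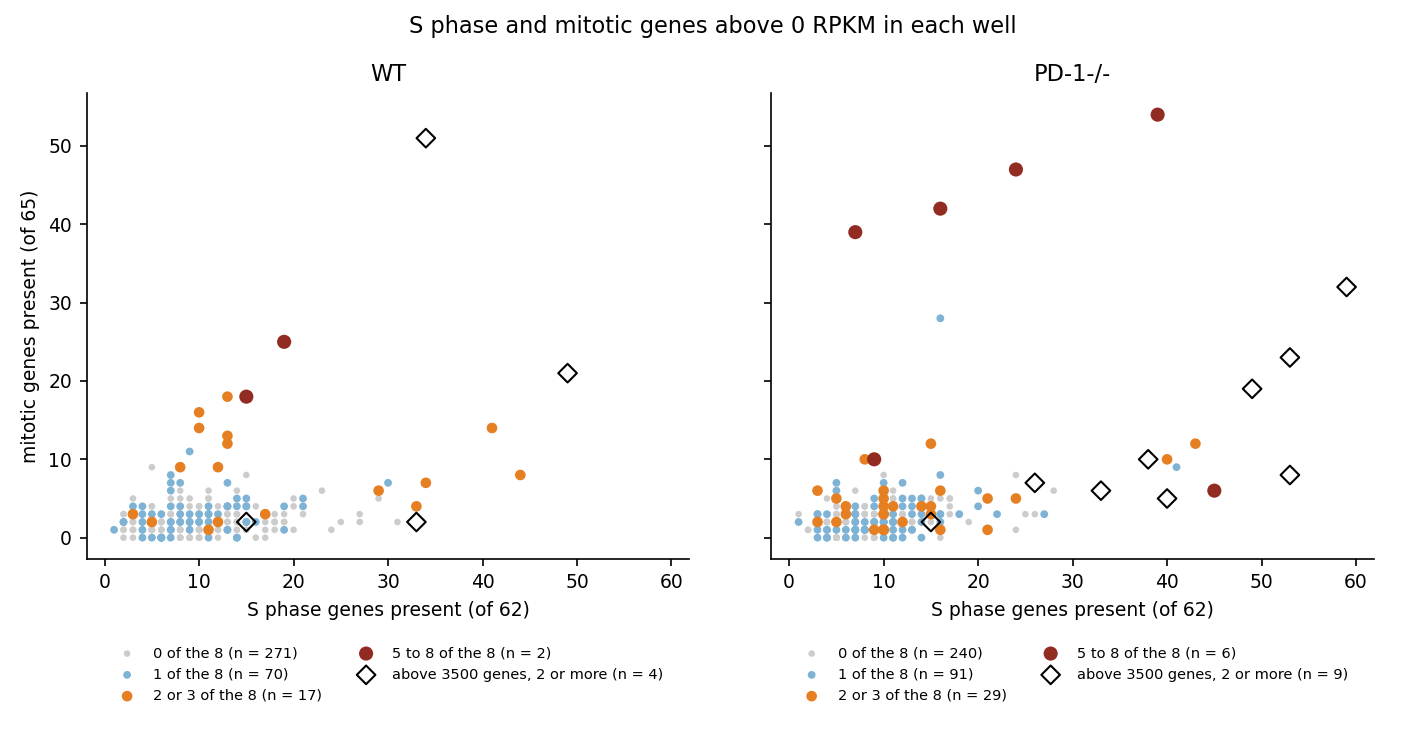
Number of S phase genes (x axis, of 62) and mitotic genes (y axis, of 65) present in each well of WT and PD-1-/-, colored by the number of the 8 selecting genes, with diamonds for wells above 3500 genes. Members with 5 or more genes reach 54 mitotic genes, and of the members with 2 or 3 genes 9 of 17 in WT and 4 of 29 in PD-1-/- lie above the reference wells on 1 axis or both.

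Across the transcriptome, the mean RPKM of members and reference was compared within each genotype as a log2 ratio of mean RPKM + 1, for the 8264 entries present in at least 5% of kept cells of each genotype. Of these, 2.14% were 2-fold or more higher in members in both genotypes and 3.05% were 2-fold or more lower in both. In WT alone 11.2% were higher and 17.7% lower by that much, and in PD-1-/- alone 7.41% and 10.9%, and 55.02% of entries had the same sign in both. The median ratio over all entries was -0.08 in WT and -0.03 in PD-1-/-. Means rested on few cells: with the highest member well of each entry left out, 39 entries still passed upward in both genotypes. Over the same entries, without the wells under 100000 reads 1.39% were higher and 4.13% lower, and without cells with a CD3 read 2.65% were higher and 6.87% lower.

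Genes that build the mitotic apparatus were higher in members more often than the 2.14% of all entries. Of 8 tested mitotic cyclins, kinases and checkpoint genes 4 passed, with a median log2 ratio of 0.99 in WT and 1.16 in PD-1-/-, and of 8 tested kinetochore, spindle and cytokinesis genes 5 passed, with medians of 1.62 and 1.39. None of the 16 was 2-fold lower in both. The 5% filter counted members too, so a gene rare in the reference could be tested because members held it. Cks1b and Wee1 were each present in 3.91% of reference cells, and Tyms and Hells, given below, in 3.72% and 4.70%. The calls of such genes partly depend on the filter, and the counts passing are a description. Without wells under 100000 reads, 4 of 8 and 4 of 8 passed, and without CD3 cells 3 of 8 and 3 of 8. In the 46 members with 2 or 3 selecting genes, 2 of 8 and 2 of 8 passed, against 2.38% of all entries for these members, with PD-1-/- medians of 0.08 and 0.57, and 2 of 8 and 2 of 8 passed without each gene's highest member well.

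Cks1b, a small subunit that docks cyclin-dependent kinases to their substrates, was present in 8 of 19 WT members (42.1%, 20.3 to 66.5) and 9 reference cells (3.32%), at a highest RPKM of 421 and 605. In PD-1-/- it was present in 9 of 35 (25.7%, 12.5 to 43.3) and 11 of 240 (4.58%), at up to 1023 and 557 RPKM. The median was 0 in all 4 groups, so the groups overlapped and differed in how many cells held the transcript. Its log2 ratios were 3.69 and 3.13, were 3.43 and 2.68 without the highest member well, and in members with only 2 or 3 of the selecting genes were 3.14 and 1.67.

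Stmn1, which encodes the microtubule destabilizer stathmin, was present in 9 of 19 WT and 11 of 35 PD-1-/- members (47.4% and 31.4%) against 7.75% and 6.67% of the references. It ranged from 0 to 47.6 RPKM in WT members with a median of 0, and from 0 to 97.5 with a median of 0 in PD-1-/- members, and its log2 ratios were 2.28 and 3.06. Racgap1, part of the centralspindlin complex of cytokinesis, was present in 47.4% and 37.1% of members against 15.5% and 15.4%, with ratios of 1.99 and 1.38. Cenpa, the centromeric histone, had ratios of 1.6 and 1.93, and Wee1, the kinase that restrains Cdk1, 2.37 and 2.66, but that of Wee1 in WT was -1.52 without the wells of low depth.

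Most mitotic genes were too rare for the 5% filter, and their presence was counted instead. Of 24 and 44 listed genes of the mitotic lists, 18 and 40 were present in a larger share of members than of reference cells in both genotypes, against 37.8% of the 14753 other entries, and 13 and 34 without wells of low depth, against 37.2%. The members' larger number of genes present stands beside these counts too, and its part was not tested. Proteasome genes, by the same count, reached 31 of 39, and 35 without wells of low depth. Among genes picked after their values were seen, Ccnb2, a mitotic cyclin, was present in 5 of 19 WT and 8 of 35 PD-1-/- members and in 2 and 2 reference cells. Ccnb1, the other main mitotic cyclin, was present in 2 and 3 members, all with 5 or more of the selecting genes, and was listed at 0 in every WT reference cell. Bub1, a spindle checkpoint kinase, was present in 5 members, each with 5 or more genes, and in 0 of the 511 reference cells, which allows a share of up to 0.587%.

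Of 28 tested genes of replication licensing and the fork 7 passed (25%), with medians of 1.18 in WT and 0.66 in PD-1-/-, and 0 were lower in both. They were the primase subunit Prim1, the ligase Lig1, the helicase subunits Mcm5 and Mcm7, the clamp loader subunit Rfc4, the fork protection factor Tipin and Gins3 of the CMG helicase. Without CD3 cells 11 passed and without wells of low depth 9, but with the highest member well of each gene left out only 1, Mcm5, did, and in the 2 WT members with 5 or more selecting genes the list median was -0.73. Gins3 had ratios of 1.23 and 1.06 that rested on single wells, which held 99.4% of its summed RPKM in WT members and 63.5% in PD-1-/- members.

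Mcm5 was present in 10 of 19 WT members (52.6%, 28.9 to 75.6), with a median of 26.8 RPKM and a highest of 714, against 12.2% of the reference, with a median of 0 and a highest of 408. In PD-1-/- it was present in 14 of 35 (40%, 23.9 to 57.9), with a median of 0 and a highest of 466 RPKM, against 12.5%. The log2 ratios were 2.85 and 1.33. Pcna, the sliding clamp, differed less, with 63.2% and 57.1% of members against 52.8% and 46.7% of the references and ratios of 0.97 and 1.04, and so did not pass in both.

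Of 17 tested genes of nucleotide synthesis 3 passed: Tyms, the thymidylate synthase, at 3.36 and 1.94, Dut, the dUTPase, at 1.45 and 1.62, and Rrm1, the large subunit of the reductase that Rrm2 completes, at 1.58 and 1.30. All 3 still passed without their highest member well. Without wells of low depth 3 passed, and without CD3 cells 5 were higher and 2 lower, the CTP synthase gene Ctps at -3.74 and -1.18 and Prps1, which makes the ribose precursor of nucleotides, at -4.96 and -1.67. Tyms was present in 6 of 19 and 8 of 35 members against 3.69% and 3.75% of the references, and its highest RPKM was 211.2 and 105.6 in members and 130.2 and 136.9 in reference cells.

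Chromosome structure genes passed in 4 of 16, with medians of 0.69 and 0.50, and in 4 without wells of low depth and 3 without CD3 cells. Hells, a chromatin remodeler of replicating cells, was present in 10 of 19 WT and 11 of 35 PD-1-/- members (52.6% and 31.4%) against 3.69% and 5.83%, with log2 ratios of 3.72 and 2.17. The condensin subunits Smc2 and Ncapd2 were at 1.0 and 2.85 and at 1.65 and 2.66. Hmgb2, a DNA-bending protein, was common in both groups, in 68.4% and 74.3% of members and 61.99% and 56.67% of reference cells, and differed by level, with a mean of 19.9 against 6.19 RPKM in WT and 17.7 against 5.92 in PD-1-/-. Among members with 5 or more genes, Smc2 was present in 6 of 6 in PD-1-/- and 0 of 2 in WT, and Hmgb2 in 6 of 6 and 1 of 2.

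Other lists of the cycle held few entries past the threshold. Of 8 tested G1/S cyclins, CDKs and E2F genes and of 7 DNA repair genes 0 passed in either direction. Without wells of low depth 1 DNA repair gene passed downward. Of 22 histone cluster entries 2 passed upward, Hist1h2ae and Hist1h2bj, and 3 downward, with medians of -1.04 and 0.00, and reads of such near-identical genes may be split among copies. Without CD3 cells 0 histone entries passed upward and 4 downward, and without each entry's highest member well 0 passed upward. Without wells of low depth 2 passed upward and 1 downward. Of 16 CDK inhibitors and genes of quiescence 1 passed, downward: Pik3ip1, an inhibitor of PI3K, at -1.32 and -1.34, present in 1 of 19 and 2 of 35 members and in 10.3% and 8.75% of reference cells, with ratios of -0.17 and -0.37 without CD3 cells. Without wells of low depth 0 of these 16 genes passed in either direction.

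Lists of growth and metabolism held few such entries. None of 25 MYC and nucleolar genes and none of 37 proteasome genes passed, 1 of 71 oxidative phosphorylation genes and 1 of 78 ribosomal protein genes passed downward, and the medians of these 4 lists lay between -0.12 and 0.30. Without wells of low depth 1 oxidative phosphorylation and 0 ribosomal protein genes passed downward, and without CD3 cells 0 and 4 did. Without CD3 cells 1 MYC and nucleolar gene and 1 oxidative phosphorylation gene passed upward. By presence, 31 of 39 proteasome, 18 of 26 MYC and nucleolar, 43 of 80 oxidative phosphorylation and 9 of 82 ribosomal protein genes were present in a larger share of members in both genotypes, against 37.8% of all entries, and the members' larger number of genes present stands beside that count. In wells of at least 100000 reads the counts were 35, 20, 59 and 45, against 37.2%. The low ribosomal count therefore depended on the wells of low depth. Of 16 glycolysis genes Hk2 passed upward and Hk1 downward. The ratios of Hk2, 3.08 and 1.10, were -0.11 and -0.93 without wells of low depth.

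**Figure D4:**
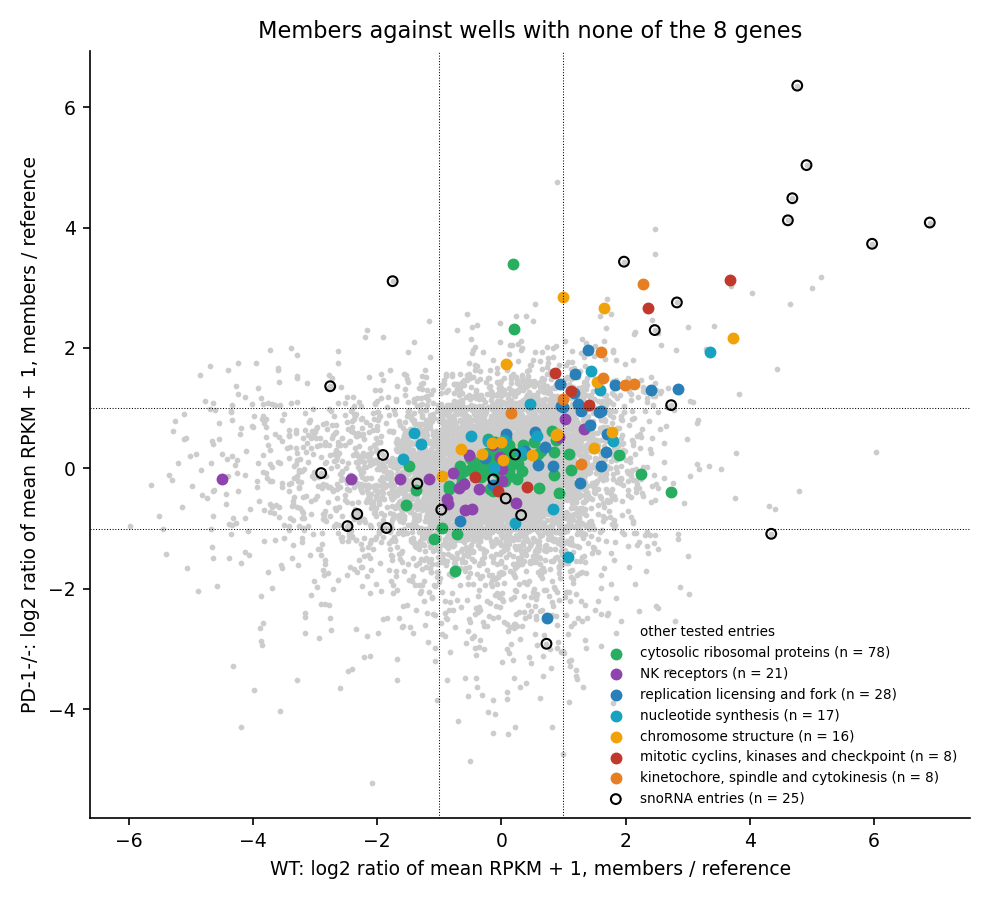
Log2 ratio of mean RPKM + 1 in members over reference in WT (x axis) and PD-1-/- (y axis) for 8264 tested entries, with gene lists in color, snoRNA entries as open circles and dotted lines at 2-fold. Replication, mitotic, kinetochore and chromosome genes gather in the upper right, ribosomal protein genes lie around 0, and the most extreme points are snoRNA entries.

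The highest ratios of all belonged to other entries. The first 6 of the 15 entries with the highest ratio in both genotypes were snoRNAs, small guides of ribosomal RNA modification hosted in introns: Snord82, Snord42a, Snord49b, Snord47, Snora81 and Snord42b, with ratios of 3.73 to 6.90. Snord42a had a median of 0 and a highest value of 29390 RPKM in WT members and of 45110 in PD-1-/- members, and that 1 well held 84.4% and 77.8% of the sum. Without wells under 100000 reads its ratios were 1.01 and 0.70, and each of the other 5 was below 1 in at least 1 genotype. 2900060B14Rik, Map1b, Tcf7l2 and Snord100, also among the 15, were at 2.76 or more in both genotypes with these wells and between -4.84 and -0.12 without them.

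The remaining 5 of the 15 kept ratios above 1 without wells of low depth. Besides Cks1b these were Cd74, the invariant chain of MHC class II, at 5.0 and 3.0, Spp1, the secreted protein osteopontin, at 4.64 and 2.73, Ifitm2, an interferon-induced membrane protein, at 2.47 and 3.57, and Tcf19, a chromatin factor of proliferating cells, at 2.47 and 3.97. Spp1 was present in 11 of 19 WT and 15 of 35 PD-1-/- members (57.9% and 42.9%) against 12.5% and 23.8% of the references, and 1 well of 49320 RPKM held 58.4% of its WT sum. Cd74 was present in 36.8% and 25.7% of members against 8.12% and 12.5%, and its ratios without CD3 cells were 2.13 and 1.49.

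The 15 lowest entries included rare ones at 0 in all members. Mcat, a mitochondrial fatty acid synthesis enzyme, was present in 17 WT and 17 PD-1-/- reference cells and in 0 of 19 and 0 of 35 members, which allows shares of up to 15.8% and 8.57%. Sord, the sorbitol dehydrogenase, was present in 23 and 26 reference cells and likewise in 0 members. Over both genotypes 0 of 54 members allows a share of up to 5.56%, and the reference shares were 6.65% for Mcat and 9.59% for Sord. For 0 cells, here and for Bub1, the limit is 3 divided by the number of cells, not an exact interval. Both genes were picked as among the lowest in these same data, so these shares are a description and do not show absence.

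Effector genes of NK cells went both ways. Of 10 tested cytotoxic genes 4 had higher and 4 had lower means in members in both genotypes, with medians of -0.41 in WT and 0.07 in PD-1-/-. Tnfsf10, the death ligand TRAIL, was present in 33.3% of members against 11.15% of the reference, and Lamp1 in 75.9% against 51.3%. Gzma and Gzmb, the granzymes A and B, had log2 ratios of -0.57 and -0.92 in WT and -0.45 and -0.32 in PD-1-/-, and Prf1, the pore-forming perforin, -1.05 and -0.43. Without CD3 cells those of Gzmb were -1.84 and -0.70 and those of Prf1 -0.80 and -0.45. Gzma was present in 13 of 19 WT members (68.4%, 43.5 to 87.4), with a median of 1077 RPKM, against 91.5% of the reference, with a median of 7115. In PD-1-/- it was present in 28 of 35 (80%, 63.1 to 91.6), with a median of 5817, against 91.3% and 8536. Without CD3 cells Gzma was present in all 9 remaining WT members and in 19 of 21 PD-1-/- members, and its ratios were -0.08 and -0.37. All 8 members with 5 or more genes had Gzma and Gzmb.

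Gzmc, a granzyme of strongly activated NK cells, was the 1 cytotoxic gene of 10 tested that passed. Its RPKM ranged from 0 to 14840 with a median of 98.95 in WT members, and from 0 to 21750 with a median of 0 in PD-1-/- members. It was present in 10 of 19 WT members (52.6%, 28.9 to 75.6) and 8 of 35 PD-1-/- members (22.9%, 10.4 to 40.1) against 30.6% and 20% of the references, so that the shares differed little in PD-1-/-. The log2 ratios were 2.14 and 2.24, and 1.29 and 1.36 without the highest well, which held 47.7% and 47.3% of the sum. Without CD3 cells they were 3.13 and 2.01. Reads of Gzmc may be shared with near-identical granzymes.

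Ccl4, a chemokine, was lower in the mean, with ratios of -2.10 and -1.69, but was present in 36.8% and 40% of members against 25.1% and 34.6% of the references. The mean of the references held cells of up to 48170 and 76350 RPKM, and the highest members had 1053 and 4483. Without CD3 cells the ratios of Ccl4 were -2.38 and -2.14. Ifng, which encodes interferon gamma, had ratios of -0.34 and -1.58 and was present in 21.1% and 25.7% of members against 25.1% and 29.6%.

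Of 8 tested tissue residency genes Cxcr6, Amica1 and Ly6a were 2-fold or more higher in both genotypes and Rgs2 lower, with a list median of 0.23 in WT and 1.08 in PD-1-/-. Without wells of low depth 2 of the 8 were higher and 0 lower in both. The chemokine receptor Cxcr6 was present in 4 of 19 and 12 of 35 members (21.1% and 34.3%) against 5.54% and 16.7% of the references, with ratios of 2.32 and 1.26. Without CD3 cells 0 of the 8 were higher in both genotypes: Cxcr6 was then present in 0 of 9 WT members and 5 of 21 PD-1-/- members, and the ratios of Amica1, a junctional adhesion molecule, were 0.53 and 0.75 and those of Ly6a, the Sca-1 antigen, 0.83 and 0.60. Cxcr6 in PD-1-/- was the exception, at 1.32 without CD3 cells.

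The cytokine receptors of the proliferative response showed 1 of 19 higher in both, Il21r at 1.06 and 1.52, but at 2.07 and 0.79 without CD3 cells. Il2ra, the high-affinity IL-2 receptor chain, had ratios of 2.78 and 0.97, but of -2.36 and -0.13 without CD3 cells. None of 10 immature NK genes, 11 mature NK genes, 21 NK receptors, 5 checkpoint receptors and 7 interferon-stimulated genes passed in either direction. The mature NK genes had medians of -0.58 in WT and -0.55 in PD-1-/-, with 6 of 11 lower and 1 higher in the mean in both genotypes. Without wells of low depth 1 mature NK gene and 1 checkpoint receptor passed downward, and without CD3 cells 1 of each did. Eomes, a master regulator of NK cells, was at -1.63 and -0.54, present in 6 of 19 WT members (31.6%, 12.6 to 56.6) against 63.5% of the WT reference and in 54.3% against 56.3% in PD-1-/-. Without CD3 cells it was present in 5 of 9 WT members. Bcl2, the survival factor, was at -1.53 in WT and -0.17 in PD-1-/-.

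Pdcd1 itself was below the 5% filter. It was present in 3 of 19 WT and 6 of 35 PD-1-/- members against 3 and 24 reference cells, at up to 627 and 536 RPKM. All 3 of the WT members with Pdcd1 had a CD3 read, since it was listed at 0 in the 9 WT members without one. A gene-level value in PD-1-/- cells can hold reads from outside the deleted exons and does not check the deletion.

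**Figure D5:**
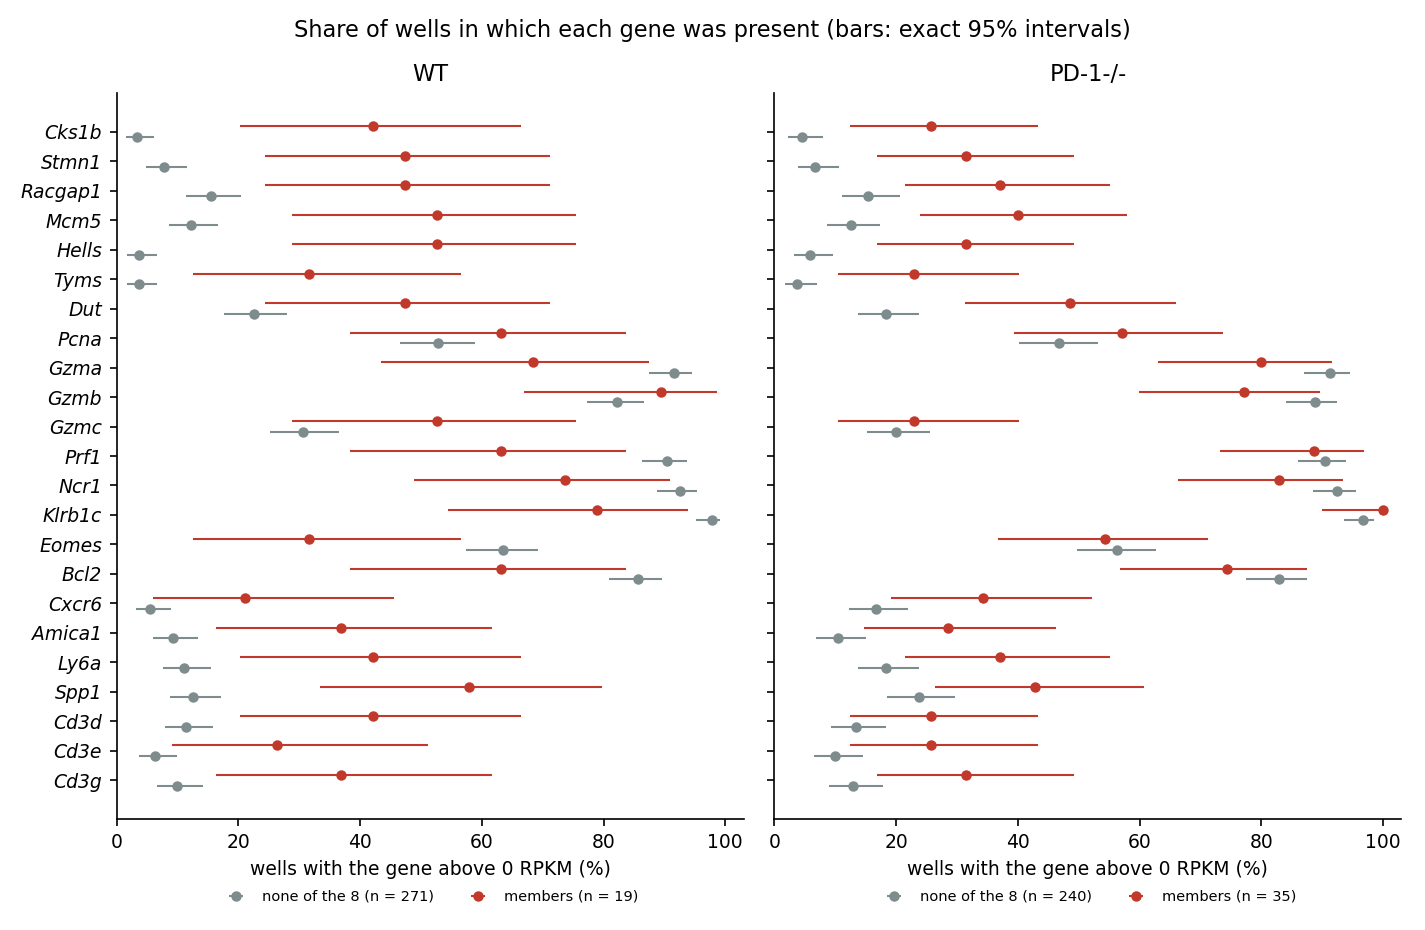
Share of wells in which each gene was above 0 RPKM (x axis, percent) in members (red) and reference wells (gray) of WT and PD-1-/-, with exact 95% intervals. Members lie to the right for the cell cycle genes at the top, with Pcna overlapping the reference, and to the left for Gzma, Prf1, Ncr1, Eomes and Bcl2, most clearly in WT, while Cxcr6, Amica1, Ly6a, Spp1 and the 3 CD3 genes lie higher in members.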

How the data were processed

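Single cells were sequenced by SMART-SEQ2 on 1 plate of 384 wells per genotype, while the labels state 382 sorted cells. The authors deposited RPKM values per gene and well, 24490 entries in 768 wells. The submitters' processing notes name TopHat, Cufflinks, mm9 and mm10 with no role or version. Deposited RPKM values were whole multiples of a well's value for 1 read: over 11384 entries, 95.75% of 787112 low values were whole within 0.0003. The reads so recovered were used for depth, thinning (seed 42), the read counts of the 8 genes and the rule of at least 4 reads a gene. Those of Tk1 and Nusap1 may be too high, as described above. Recovered reads per kept well were 1778 to 572930 (median 385825) in WT and 2364 to 681175 (median 408987) in PD-1-/-. No 2 wells held identical values. Of 360 kept WT and 366 kept PD-1-/- wells, 271 and 240 were the reference and 70 and 91 held 1 of the 8 genes.

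Members had at least 2 of the 8 genes above 0. Members and gene lists were chosen with earlier results of these data known. Entries present in at least 5% of kept wells of each genotype were compared by the log2 ratio of mean RPKM with a pseudocount of 1, which understates differences of low genes. A ratio of at least 1 in size and of 1 sign in both genotypes was the call, which took 177 entries upward and 252 downward. Each genotype was 1 pool of 3 mice, so no test was run. The naming rule took the 8 genes, the 15 highest and 15 lowest entries by the smaller of the 2 ratios, 4 per list, cell type markers, granzymes and perforin, and genes the study names. Entries called in a list, Pcna, and the rare mitotic genes were added after their values were seen. Alternatives covered the presence threshold, the number of genes required, CD3 wells, plate rows, depth, pseudocount and filter. Calculations used Python 3.11.15, numpy 2.4.6, pandas 2.3.3, scipy 1.17.1 and matplotlib 3.10.9, and the ratio step was tested on simulated data. Promoter sequences came from RefSeq, and a CCAAT or E2F match could overlap another motif. Some items of the gate and of the gene lists are not reported here.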

Additional observations from a re-analysis of the deposited data

Results flagged for a closer look

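Wells outside the comparisons, left out because more than 3500 genes were present in them, held 2 or more of the 8 selecting genes in 13 of 30 (43.3%, 25.5 to 62.6), against 7.44% of kept wells. They drew a closer look as a signal in wells that no comparison used. They were 4 of 16 such WT wells and 9 of 14 such PD-1-/- wells, of which 2 and 3 carried 5 or more of the genes. Their median number of S phase genes was 33.5 in WT and 40 in PD-1-/-, and of mitotic genes 11.5 and 8, against 19 and 24 S phase genes and 4 and 4 mitotic genes in the other wells above 3500 genes. Wells that hold more than 1 cell were not called here, and their part in this share was not tested.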

How the results depend on the processing

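The share of members was higher in PD-1-/- than in WT under all 13 alternatives run, by 1.07 to 6.59 percentage points, and no value reversed its direction. Counts of entries are given here as percents of the entries each alternative tested, and moved by over 1.5 times as counts. With presence set at more than 10 RPKM the PD-1-/- share was 5.19% and 5.08% of entries were lower in both genotypes. With at least 3 of the 8 genes the shares were 1.67% and 2.73%, their difference 1.07 points, and 3.79% of entries were higher and 12.5% lower. Without wells with a CD3 read the WT share was 3.05%, and 6.71% of entries were lower. Lower entries made up 6.43% in plate rows A to H, 7.57% in rows I to P and 5.64% after thinning. Higher and lower entries made up 0.581% and 0.375% with a pseudocount of 10, 0.507% and 1.31% with a filter at 20% of wells, 3.10% and 2.28% with no filter, and 0.315% and 0.375% at a log2 ratio of 2 or more. With the mean of log2 values 0.266% were lower. Of alternatives chosen after seeing the data, at least 5 of the 8 genes gave shares of 0.556% and 1.64%, 1.08 points apart, and at least 4 reads a gene gave 2.78% and 5.74% with 6.66% of entries lower. Higher entries made up 1.38% without wells under 100000 reads and 0.472% without each entry's highest member well. The cause of these changes was not tested. Means of 19 and 35 cells could rest on 1 well, and with 1 plate per genotype no replicate was left out. No paired analysis was possible because each genotype was 1 plate and the numbers of the wells only name cells, with no link across plates.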

Other observations

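Outside the gene lists, 5 entries chosen after their values were seen were present in 6 of the 8 members with 5 or more selecting genes and in under 10% of the reference. They were Neil3, a DNA glycosylase, in 1 of 511 reference cells, Knstrn, a kinetochore protein, in 11, Gmnn, the licensing inhibitor geminin, in 42, Dbf4, the activator of the Cdc7 kinase, in 44, and Uba6, a ubiquitin-activating enzyme, in 42. Among the 46 members with 2 or 3 genes, Neil3 was present in 1, Knstrn in 3, Gmnn in 6, Dbf4 in 4 and Uba6 in 6.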
